A study of Mus musculus with 6 samples.

Results

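Proteasome genes were described in AtT-20 iPAM cells, a corticotrope line from a mouse pituitary tumour that carries a doxycycline-inducible copy of PAM, the monooxygenase that amidates peptides in the secretory pathway. Members were the rows of the deposited gene table whose symbol begins with Psma to Psmg followed by a digit, which took 49 of 23349 rows. They were picked by symbol alone, but the family was put forward with the induced and basal values of these same libraries known, so the counts and medians below describe it and support nothing further. Induced cells (3 libraries) were given doxycycline at 4 micrograms per ml over 48 h, and basal cells (3 libraries) are labelled as having the basal level of PAM; both groups carry the inducible copy and were grown with G418 and hygromycin. Doxycycline was given to induced cells only, so it and raised PAM cannot be told apart. RNA came from dense wells, and whether the libraries of a group are separate cultures is not stated, so the spread behind each p-value may be technical.

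The proteasome is the protease that degrades proteins tagged with ubiquitin. Its 20S core is a barrel of alpha and beta rings, with the active sites facing inward on beta subunits, and the 19S cap unfolds substrates with a ring of ATPases and binds and removes ubiquitin with its other subunits. Activators of the Psme group open the core without ubiquitin, and dedicated chaperones, among them the Psmg proteins, assemble the rings. In secretory cells the proteasome also clears misfolded proteins exported from the endoplasmic reticulum.

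The 49 members were 7 alpha subunits, 7 standard beta subunits, 5 tissue-specific core subunits, 6 ATPases and 14 other genes of the 19S group, 4 activators, 1 inhibitor (Psmf1), 4 Psmg chaperones, and Psmc3ip, a meiotic recombination factor that shares only the beginning of its name. Values were TPM, a transcript abundance scaled to add up to 1000000 in each library, and the labels state 16.6 M reads per library. Libraries were made by amplifying chosen stretches of transcripts, so levels were compared within a gene and not between genes. Testing was limited to genes averaging 1 TPM or more, which kept 47 members and 12400 genes in all. Psma8, an alpha subunit of the testis, was listed at 0 in every library. Psmb11, the catalytic subunit of the thymus, stood at 0.212, 0.132 and 0 TPM in induced libraries and at 0.111, 0.319 and 0.137 TPM in basal libraries, under the level tested. In bulk RNA fewer cells of a type and less RNA per cell cannot be told apart. Corticotrope markers, among them Pomc and Tbx19, summed to between 21560 and 30493 TPM in induced libraries and between 23121 and 32111 TPM in basal libraries. Pomc made up most of these sums, with means of 23484 TPM in induced and 26183 TPM in basal libraries. The sums therefore say little about the other corticotrope markers. Of 7 markers of other pituitary cells 3 were at 0 in every library, and all 7 summed to at most 0.855 TPM in an induced library and 2.0 TPM in a basal library. Fibroblast markers, with 2 of 4 at 0 throughout, summed to between 1.33 and 1.76 TPM in induced and between 2.57 and 4.03 TPM in basal libraries, and their part in the results was not tested. Pam itself stood at 507, 399 and 258 TPM in induced libraries and at 92.6, 82.8 and 66.9 TPM in basal libraries, every induced library above every basal one (means 388 and 80.8 TPM, log2 difference 2.21, SE 0.26; limma adjusted p = 0.0210). Its call was lost when any 1 library other than induced 3 was left out (adjusted p up to 0.175).

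Most proteasome genes stood slightly higher in induced cells, with the highest ratio of means at 1.46, for Psmd9. Of the 47 tested members 39 had a positive log2 difference, a share of 83%, beside 44.9% of all genes tested. The median difference was 0.18 on the log2(TPM + 1) scale, from -0.71 to 0.53, and the median over all genes was -0.04. No member passed the limma threshold (0 of 47 with adjusted p under 0.05), where 1.19% of all genes did (0.129% higher, 1.06% lower). At an unadjusted limma p under 0.05 there were 12 members higher and 1 lower, beside 5.53% and 9.56% of all genes.

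The count of calls depended on how the libraries were matched. The column names number the libraries from 1 to 3 in each group. Deviations from group means correlated at 0.717 between the libraries numbered 3 and at 0.461 between those numbered 1. For number 2 the value was 0.182, under the 0.322 of induced 2 with basal 1. With the library number as a block in the limma fit, 14 members were called higher (29.8%, beside 8.23% of all genes). The block fit called 1 lower, Psmb9 (beside 14% of all genes lower and 22.3% in either direction). Block calls lay in the alpha ring (Psma2, Psma3, Psma6), the beta ring (Psmb1, Psmb3, Psmb5), the ATPases (Psmc2, Psmc5), the other 19S genes (Psmd6, Psmd9, Psmd14) and the chaperones (Psmg1, Psmg3, Psmg4). Within same-numbered pairs 30 of the 47 members were higher in the induced library in all 3 pairs (63.8%, beside 23.6% of all genes) and 3 were lower in all 3 (beside 32.6%). Leaving out both libraries numbered 1 or both numbered 2 reduced the block calls to 7 higher and 0 lower in each case, and leaving out both numbered 3 gave 11 higher and 2 lower. The same 4 members, Psmb3, Psmc2, Psmg1 and Psmg3, were called in all 4 of these block fits. Every other member called in the full block fit lost its call when some number was left out. Groups did not overlap for 15 members with induced cells higher and 1 with induced cells lower (31.9% of members higher, beside 9.04% of all genes; 12.6% of all genes were lower, and 21.6% were apart in either direction).

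**Figure D1:**
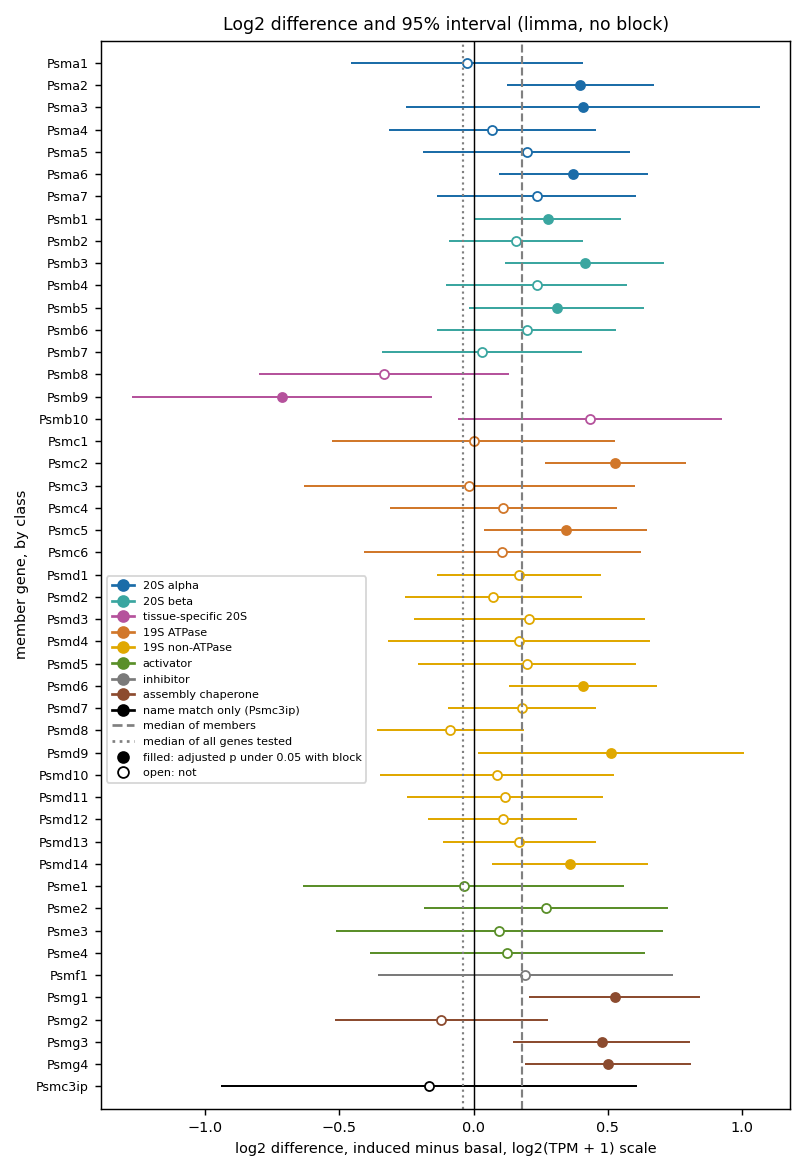
Log2 difference (induced minus basal, log2(TPM + 1) scale, x axis) of the 47 tested members, down the page by class; bars are 95% limma intervals of the fit without a block, and filled points had adjusted p under 0.05 with the block. The dashed line marks the median of the members, 0.18, and the dotted line that of all genes, -0.04; Psmb9 lies farthest to the left, at -0.71, and Psmc2 farthest to the right, at 0.53.

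Stretches of 150 bases just before a RefSeq transcription start (GRCm38.p6, the build the labels call mm10) are shown for the 6 members that were called higher with the block and that hold, wholly before the start, CCGGAAG or TGACNNNGC (for Psmc2 the first of its listed starts, at the start of the gene; for Psma6 the second, which lies inside the gene, annotated from 55384222 to 55418459). They lie at chr5:21785125-21785274 (Psmc2, plus strand), chr16:95990961-95991110 (Psmg1, minus), chr14:14120946-14121095 (Psmd6, minus), chr12:55398675-55398824 (Psma6, plus), chr14:54617996-54618145 (Psmb5, minus) and chr5:123228040-123228189 (Psmd9, plus), each read 5′ to 3′ on the strand of its gene. Capitals mark CCGGAAG, a core that ETS factors bind, or its reverse complement in the first 4 lines, and TGACNNNGC, the core of the antioxidant response element that Nrf1 and Nrf2 bind, in the last 2.
Psmc2: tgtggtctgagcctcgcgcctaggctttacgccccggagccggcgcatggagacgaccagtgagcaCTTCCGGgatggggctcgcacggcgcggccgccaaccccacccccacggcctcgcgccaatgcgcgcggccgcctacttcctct
Psmg1: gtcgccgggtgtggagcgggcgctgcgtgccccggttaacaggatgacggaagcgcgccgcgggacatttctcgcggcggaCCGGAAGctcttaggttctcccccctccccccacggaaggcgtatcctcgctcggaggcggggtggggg
Psmd6: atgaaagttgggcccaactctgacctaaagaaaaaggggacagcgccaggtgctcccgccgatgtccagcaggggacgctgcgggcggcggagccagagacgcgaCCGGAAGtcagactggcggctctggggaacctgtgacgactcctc
Psma6: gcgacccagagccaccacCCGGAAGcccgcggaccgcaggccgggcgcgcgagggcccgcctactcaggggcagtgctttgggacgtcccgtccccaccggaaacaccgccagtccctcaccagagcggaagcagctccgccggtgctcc
Psmb5: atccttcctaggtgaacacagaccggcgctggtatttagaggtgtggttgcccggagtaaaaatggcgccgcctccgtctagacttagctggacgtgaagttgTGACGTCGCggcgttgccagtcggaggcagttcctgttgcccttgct
Psmd9: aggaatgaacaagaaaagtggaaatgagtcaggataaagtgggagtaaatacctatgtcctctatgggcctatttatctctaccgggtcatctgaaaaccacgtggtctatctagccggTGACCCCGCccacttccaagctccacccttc
CCGGAAG, sought on both strands from 250 bases before to 50 after each listed start, occurred in 15 of the 41 members with a RefSeq window, or 36.6%. The same letters occurred in 9.93% of all genes with a window and in 20.5% of the tested genes with one. TGACNNNGC occurred in 6 of the 41, or 14.6%, against 17.5% of tested genes with a window, and CCAAT, the box that NF-Y binds, in 36.6% against 43.7%. TGACGTCA, the cAMP response element, occurred in 0 of the 41 against 3.79%. The members with CCGGAAG had a median log2 difference of 0.13 (15 genes) and those with a window but without it 0.20 (25 tested genes). These matches are letters in a window and do not show that a factor binds there.

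The alpha ring, which forms the outer gate of the core, had positive differences in 6 of 7 genes, with a median of 0.23. Psma2 stood at 254, 251 and 235 TPM in induced libraries and at 186, 196 and 179 TPM in basal libraries. Every induced library lay above every basal one, and the means differed 1.32-fold (log2 difference 0.40, SE 0.11; limma adjusted p = 0.159 without and 0.00853 with the block). The block call of Psma2 was lost without number 1 (limma adjusted p = 0.0542). Psma6 gave 364, 398 and 373 TPM in induced libraries against 301, 271 and 305 TPM in basal libraries, again without overlap (limma adjusted p = 0.190 without and 0.0170 with the block). Its block call was lost without number 2 (limma adjusted p = 0.0978). Psma3, with 347, 339 and 191 TPM in induced and 263, 220 and 166 TPM in basal libraries, overlapped between groups, because both libraries numbered 3 were the lowest of their group; it was higher within each pair (limma adjusted p = 0.591 without and 0.0179 with the block). Its log2 difference of 0.41 was 0.69 without induced 3, 0.23 without basal 3 and 0.26 without induced 1, and its block call was lost without number 2 (limma adjusted p = 0.105). Psma1 was near equal in both groups, at 284 ± 49.3 TPM in induced and 288 ± 41.5 TPM in basal libraries (SD, n = 3). Its log2 difference was -0.02. Psma4, Psma5 and Psma7 had log2 differences of 0.07, 0.20 and 0.23 and passed in neither fit.

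The standard beta ring holds the active sites, and all 7 of its genes had positive differences (median 0.23, from 0.03 to 0.41). Among the catalytic subunits, Psmb5, the chymotrypsin-like site, stood at 376, 385 and 312 TPM in induced libraries against 275, 314 and 274 TPM in basal libraries. The groups touched, since induced 3 lay just under basal 2 (log2 difference 0.31, SE 0.14; limma adjusted p = 0.352 without and 0.0298 with the block). The block call of Psmb5 was lost without number 1 (limma adjusted p = 0.225) and without number 2 (0.0991), and held without number 3 (0.0422). Psmb6, the caspase-like site, averaged 180 ± 24.8 TPM in induced and 156 ± 3.68 TPM in basal libraries, and Psmb7, the trypsin-like site, 422 ± 64.6 and 410 ± 38.5 TPM (SD, n = 3). Neither passed in either fit, and the sign of Psmb7 turned without induced 1, without induced 2 or without basal 2. The structural subunit Psmb3 had the highest difference of the ring, with 549, 592 and 652 TPM in induced libraries and 416, 457 and 472 TPM in basal libraries. Its groups were well apart, at a 1.33-fold difference (limma adjusted p = 0.174 without and 0.00556 with the block). Psmb1 was 1.21-fold higher, without overlap (limma adjusted p = 0.310 without and 0.0432 with the block). Its block call was lost without any 1 number (limma adjusted p = 0.0684, 0.184 and 0.109 without 1, 2 and 3). Psmb2 had little spread, at 522 ± 8.94 TPM in induced and 468 ± 4.74 TPM in basal libraries (SD, n = 3), apart by 1.12-fold but past the threshold in neither fit (limma adjusted p = 0.564 without and 0.156 with the block). Psmb4 had a log2 difference of 0.23 and passed in neither fit.

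The interferon-inducible catalytic subunits, which replace the standard ones in the immunoproteasome that cuts peptides for antigen presentation, had differences of both signs, -0.71 for Psmb9, -0.33 for Psmb8 and 0.43 for Psmb10. Psmb9, which takes the place of Psmb6, stood at 2.66, 5.07 and 5.0 TPM in induced libraries and at 7.74, 7.93 and 6.52 TPM in basal libraries. All induced libraries lay below all basal ones, and the ratio of means was 0.574 (log2 difference -0.71, SE 0.24; limma adjusted p = 0.211 without and 0.0244 with the block). The log2 difference of Psmb9 was -0.47 without induced 1 and reached -0.84 without induced 2. Its block call was lost without number 1 (-0.44, limma adjusted p = 0.133) and without number 2 (-0.79, 0.0825), and held without number 3 (-0.91, 0.0462). Psmb8, which takes the place of Psmb5, stood at 25.0, 25.7 and 37.4 TPM in induced against 41.5, 34.7 and 34.0 TPM in basal libraries; it was lower in the pairs numbered 1 and 2 and higher in the pair numbered 3 (limma adjusted p = 0.515 without and 0.139 with the block). In the block fit Psmb8 was -0.14 without number 1, -0.29 without number 2 and -0.57 without number 3, called lower in the last alone (limma adjusted p = 0.620, 0.366 and 0.0368). Psmb10, which takes the place of Psmb7, stood at 6.28, 4.68 and 4.78 TPM in induced and 4.67, 2.82 and 3.49 TPM in basal libraries, so that its lowest induced and highest basal values almost met (limma adjusted p = 0.399 without and 0.0565 with the block). Psmb9 and Psmb8 lie on chromosome 17 (GRCm38.p6, 34182030 to 34187330 and 34198195 to 34201454), on either side of Tap1 (34187556 to 34197225), a subunit of the peptide transporter of antigen presentation. Tap1 had 15.4, 18.97 and 21.8 TPM in induced and 31.0, 37.5 and 39.9 TPM in basal libraries (log2 difference -0.92, SE 0.18; limma adjusted p = 0.0689 without and 4.9e-04 with the block). Tap2, beyond Psmb8 (34204479 to 34216321), averaged 18.7 ± 3.04 TPM in induced and 20.2 ± 2.29 TPM in basal libraries (SD, n = 3). The log2 difference of Tap2 was -0.11 (limma adjusted p = 0.870 without and 0.521 with the block). B2m, the light chain of class I molecules, averaged 11.02 ± 4.18 TPM in induced and 25.98 ± 6.90 TPM in basal libraries (SD, n = 3; limma adjusted p = 0.127 without and 8.96e-04 with the block). Among other genes of antigen presentation, Tapbp, H2-D1, H2-K1 and Erap1 had log2 differences of -0.49, -0.19, -0.15 and 0.05. Their limma adjusted p with the block was 0.0115, 0.0998, 0.265 and 0.809, in that order. Of 7 tested genes of antigen presentation 6 had negative differences, 0 passed in the fit without a block and 2 were lower at an unadjusted limma p under 0.05, beside 9.56% of all genes; 3 were lower with the block, beside 14% of all genes.

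**Figure D2:**
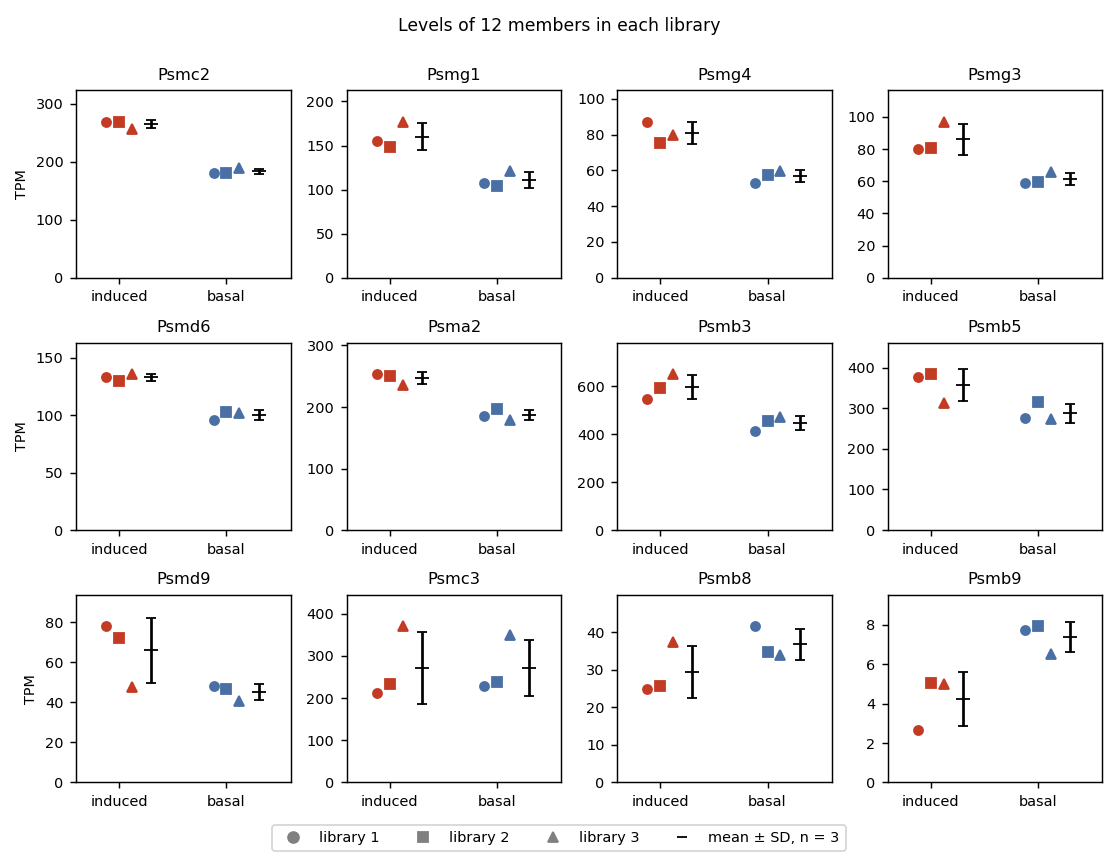
TPM (y axis, from 0) of 12 members in each induced library (left) and each basal library (right), with symbols for the library number and the mean ± SD of 3 libraries beside them. Psmc2, Psmg1, Psmg3, Psmg4, Psmd6, Psma2 and Psmb3 do not overlap between groups with induced higher, Psmb9 does not overlap with induced lower, and in Psmc3 both libraries numbered 3 stand above the others.

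The ATPases of the 19S base thread substrates into the core, and 5 of 6 had positive differences, but the median was only 0.11. Psmc2 had the highest difference of all members, with 269, 269 and 257 TPM in induced libraries against 181, 180 and 189 TPM in basal libraries. The spread within each group was small beside the distance between them, a 1.44-fold difference (log2 difference 0.53, SE 0.11, 95% confidence interval 0.27 to 0.79; limma adjusted p = 0.0784 without and 0.00272 with the block). Psmc5 was 1.27-fold higher, without overlap, at 262 ± 25.9 TPM in induced and 206 ± 11.4 TPM in basal libraries (SD, n = 3; limma adjusted p = 0.264 without and 0.0167 with the block). Its block call was lost without any 1 number (limma adjusted p = 0.0529, 0.0650 and 0.0602 without 1, 2 and 3). Psmc1 and Psmc3 had differences of 0.0004 and -0.02, with 191, 197 and 293 TPM in induced and 200, 198 and 279 TPM in basal libraries for Psmc1. In both genes the libraries numbered 3 stood above the rest by more than the groups differed. Psmc4 and Psmc6, at 0.11 each, passed in neither fit.

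Of the 14 other 19S genes, which include ubiquitin receptors, the deubiquitinase, scaffold subunits and base chaperones, 13 had positive differences, with a median of 0.17. Psmd14, the deubiquitinase that strips ubiquitin chains from substrates, stood at 183, 188 and 176 TPM in induced and 155, 134 and 138 TPM in basal libraries. Its groups did not overlap (log2 difference 0.36, SE 0.12; limma adjusted p = 0.224 without and 0.0196 with the block). Psmd6, a lid subunit, had 134, 130 and 136 TPM in induced and 95.5, 103 and 101 TPM in basal libraries, a 1.33-fold difference with little spread (limma adjusted p = 0.153 without and 0.0102 with the block). Psmd9, a chaperone of base assembly and not a subunit of the finished cap, stood at 77.8, 72.0 and 47.6 TPM in induced and 48.0, 46.5 and 40.4 TPM in basal libraries. Induced 3 fell within the basal range, so the groups overlapped (log2 difference 0.51, SE 0.21; limma adjusted p = 0.307 without and 0.0117 with the block). The other base chaperones, Psmd5 and Psmd10, had differences of 0.20 and 0.09 and passed in neither fit. Psmd4, the ubiquitin receptor Rpn10, averaged 247 ± 51.7 TPM in induced and 220 ± 43.3 TPM in basal libraries, and Psmd11, a lid subunit tied to 26S assembly, 91.9 ± 12.6 and 84.5 ± 7.98 TPM (SD, n = 3). Both were within the spread of their libraries. Psmd7 and Psmd13 differed by 1.14-fold and 1.13-fold without overlap and passed in neither fit. Psmd8 was the 1 gene of this class with a negative difference, at 252 ± 4.74 TPM in induced and 268 ± 17.4 TPM in basal libraries (SD, n = 3; log2 difference -0.09; limma adjusted p = 0.822 without and 0.466 with the block), and it was lower in each pair.

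The Psmg chaperones, which build the alpha ring as the pairs Psmg1 with Psmg2 and Psmg3 with Psmg4, had the highest median of any class, 0.49, over only 4 genes. Psmg1 stood at 155, 148 and 177 TPM in induced libraries against 107, 105 and 121 TPM in basal libraries. The groups were apart in every library, and the 3 same-numbered pairs gave log2 differences of 0.53, 0.50 and 0.55 (limma adjusted p = 0.125 without and 0.00287 with the block). Psmg3 had 80.0, 80.9 and 97.1 TPM in induced and 58.8, 59.4 and 65.8 TPM in basal libraries, and Psmg4 87.3, 75.4 and 79.8 against 53.0, 57.4 and 59.9 TPM. Both were separate between groups, at 1.40-fold and 1.42-fold (limma adjusted p = 0.163 and 0.129 without the block, 0.00597 and 0.00806 with it). Psmg2 differed from its partner Psmg1 in sign, with 121, 137 and 99.3 TPM in induced and 141, 133 and 113 TPM in basal libraries. It passed in neither fit (log2 difference -0.12, SE 0.17; limma adjusted p = 0.839 without and 0.375 with the block), and the difference between the partners was not tested.

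The 4 activators and 1 inhibitor held 0 calls by limma in either fit, and 0 at an unadjusted limma p under 0.05. Of all genes, 1.19% were called without the block, 22.3% with it, and 15.1% had an unadjusted p under 0.05. At these shares, 0 calls among so few genes do not set them apart. Psme1 and Psme2, the interferon-inducible 11S pair, averaged 80.0 ± 25.7 and 133 ± 30.2 TPM in induced and 80.5 ± 16.2 and 109 ± 14.1 TPM in basal libraries (SD, n = 3), with log2 differences of -0.04 and 0.27. Without induced 3 that of Psme2 was 0.091. Psme2 has a retrocopy, Psme2b, and how the counting divided shared reads is not given in the sources used here. Psme3, the nuclear activator, and Psme4, the large single-chain activator, differed by 0.10 and 0.13. Psmf1, which encodes the inhibitor PI31, stood at 32.0, 29.5 and 18.2 TPM in induced and 25.0, 22.7 and 19.96 TPM in basal libraries; the induced group held both the highest and the lowest value (limma adjusted p = 0.797 without and 0.286 with the block). Psmc3ip, which is no proteasome gene, had 52.6, 55.8 and 103 TPM in induced and 61.1, 63.7 and 110 TPM in basal libraries, with a log2 difference of -0.17.

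Much of the spread among members followed the library number. In both groups the libraries numbered 3 were above the others for Psmc1, Psmc3, Psmd4, Psme1 and Psmc3ip and below them for Psma1, Psma3, Psmc6 and Psme3. Over the 47 members the shift of induced 3 from induced 1 and 2 correlated with that of basal 3 from basal 1 and 2 at r = 0.866, and over all 12400 genes at r = 0.717; these are descriptions across genes that share the same libraries. The GC content of a member's longest transcript correlated with its shift in the libraries numbered 3 at r = 0.478 in induced and 0.47 in basal cells (47 members). Over 12289 genes these values were 0.463 and 0.406. With the induced minus basal difference GC content correlated at r = -0.098 over the members and 0.048 over those genes. GC content was taken over whole transcripts and not over the stretches that were amplified. With each library corrected for GC content the median difference of the members was 0.22, and limma called 1 member, Psmg4, without the block and 21 with it. The median deviation of the members from their own 6-library means, as log2(TPM + 1), was 0.09, 0.11 and 0.16 in induced 1 to 3 and -0.10, -0.15 and -0.12 in basal 1 to 3. The same medians over all genes were 0.10, -0.03 and -0.10 in induced and 0.10, 0.02 and -0.05 in basal libraries. The members' medians did not overlap between groups, and those of all genes did.

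**Figure D3:**
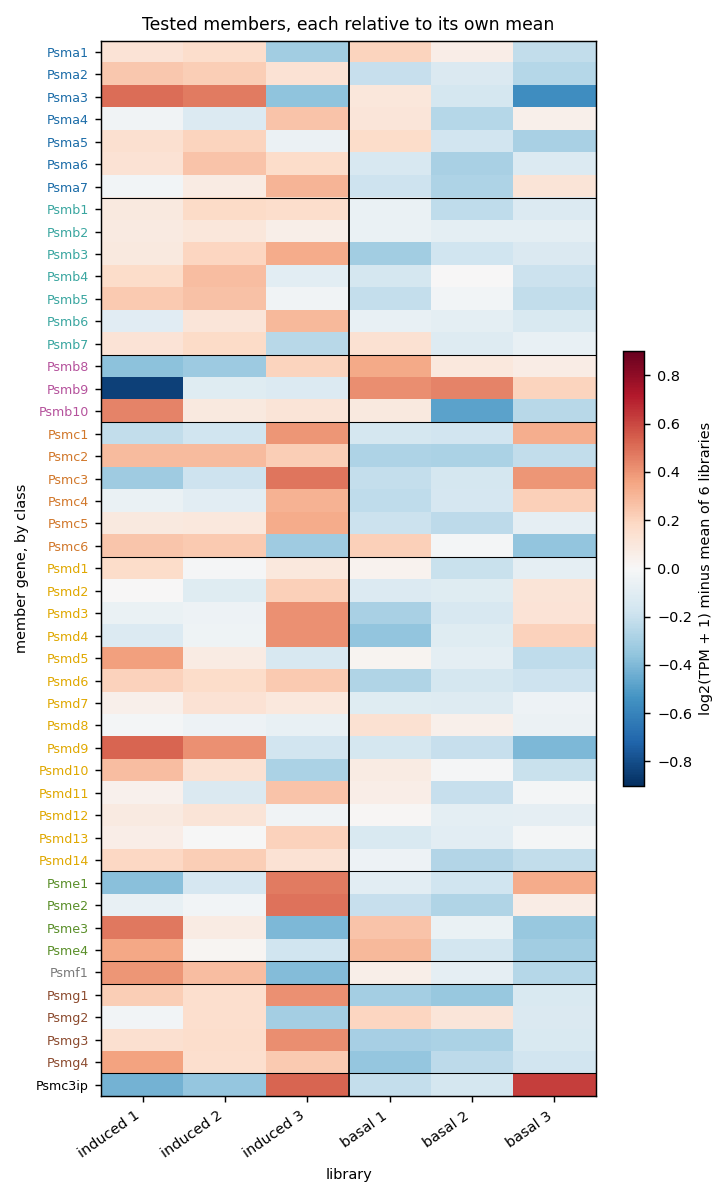
log2(TPM + 1) of each tested member minus its mean over the 6 libraries (colour), with induced libraries left and basal libraries right of the line and members down the page by class. The induced side is mostly above the mean of each gene, with Psmb8 and Psmb9 among the exceptions, and the libraries numbered 3 of both groups share the same direction for many 19S genes and activators.

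**Figure D4:**
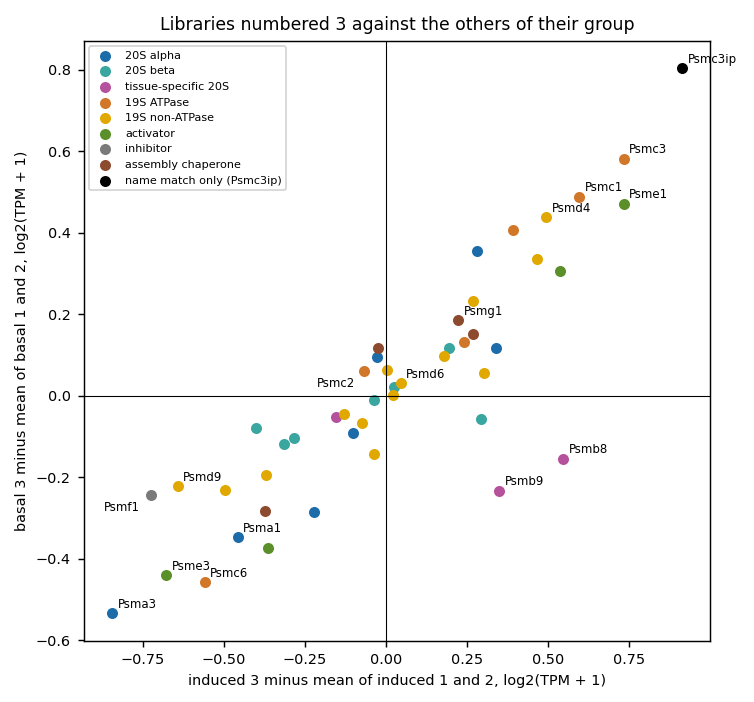
Shift of induced 3 from the mean of induced 1 and 2 (x axis) against that of basal 3 from the mean of basal 1 and 2 (y axis), both as log2(TPM + 1), for the 47 tested members coloured by class. The points rise together (r = 0.866), though the shifts of many members were unequal in size between the groups. Psmb8 and Psmb9 are among those with shifts of opposite sign, at 0.55 and 0.35 in induced against -0.15 and -0.23 in basal libraries.

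Partners of the proteasome outside the Psm names had medians of 0.10 (cofactors), 0.05 (shuttles and p97) and 0.13 (ubiquitin genes), beside 0.18 for the members. Of 14 cofactors tested, 9 had positive differences (64.3%, beside 44.9% of all genes); 0 passed as higher and 1, Zfand2a, fell, beside 0.129% higher and 1.06% lower of all genes. Zfand2a, an arsenite- and heat-inducible protein that binds the 19S cap, stood at 40.9, 41.1 and 46.9 TPM in induced against 94.6, 90.4 and 94.8 TPM in basal libraries (log2 difference -1.10, SE 0.13; limma adjusted p = 0.0210). Its groups were far apart, but the call was lost without some single libraries (adjusted p up to 0.175). AI314180, the proteasome adaptor Ecm29, and Pithd1 had the highest differences of the list, 0.28 and 0.25, and passed in neither fit. The ubiquitin receptor Adrm1 averaged 261 ± 54.4 TPM in induced and 221 ± 50.8 TPM in basal libraries, and Pomp, which matures the core, 444 ± 11.8 and 406 ± 15.1 TPM (SD, n = 3), and neither passed by limma (adjusted p = 0.698 and 0.673 without the block, 0.0607 and 0.250 with it). The small 19S subunit Shfm1, named after its value was seen, had a log2 difference of 0.25 (limma adjusted p = 0.664 without and 0.0409 with the block). It was 0.10 without induced 3 and 0.40 without induced 1, and the block call was lost without any 1 number (adjusted p from 0.104 to 0.160). Among 14 ubiquitin shuttles and p97 genes, 8 had positive differences (57.1%, beside 44.9% of all genes) and 0 passed by limma. At an unadjusted limma p under 0.05, 1 was higher (7.14%, beside 5.53% of all genes). With the block 2 were higher (14.3%, beside 8.23% of all genes). Vcp, the p97 unfoldase itself, stood at 329, 299 and 303 TPM in induced and 265, 240 and 250 TPM in basal libraries, without overlap (limma adjusted p = 0.281 without and 0.0244 with the block). The p97 adaptor Nsfl1c had the highest difference of that list, 0.37 (limma adjusted p = 0.471 without and 0.0138 with the block). It was 0.21 without induced 3, and the block call was lost without number 1 (adjusted p = 0.0790) and without number 3 (0.0507). That of Vcp was lost without any 1 number (adjusted p = 0.128, 0.0897 and 0.0535 without 1, 2 and 3). Of the 7 ubiquitin and activating-enzyme genes 5 had positive differences (71.4%, beside 44.9% of all genes). By limma 0 passed, beside 1.19% of all genes, and 0 had an unadjusted p under 0.05, beside 15.1%. With the block 1, Rps27a, was higher (14.3% of the list, beside 8.23% of all genes). Its limma adjusted p was 0.0396 with the block, but 0.132 without number 2 and 0.166 without number 3. Its log2 difference was 0.32, and 0.14 without induced 3. Reads of the shared ubiquitin repeat make single ubiquitin genes uncertain.

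Among 12 tested genes that act on proteasome transcription 4 had positive differences. Nfe2l1, which encodes Nrf1, the factor that raises proteasome genes when the protease is short, stood at 151, 117 and 139 TPM in induced and 139, 117 and 131 TPM in basal libraries, within the spread of its libraries (log2 difference 0.07, SE 0.15; limma adjusted p = 0.909 without and 0.580 with the block). Maff, which encodes a small Maf partner of Nrf1, fell to 32.7, 31.8 and 35.1 TPM in induced libraries, against 95.5, 94.6 and 99.1 TPM in basal libraries (log2 difference -1.51, SE 0.12; limma adjusted p = 0.00840, and up to 0.127 with 1 library left out). Mafk, another small Maf, averaged 29.5 ± 5.22 TPM in induced and 43.5 ± 3.86 TPM in basal libraries (SD, n = 3; limma adjusted p = 0.187 without and 0.00488 with the block). Maff was the 1 gene of this list past the threshold without a block; with it 4 were lower and 0 higher. Over all genes 1.06% were lower without the block, and 14% were lower and 8.23% higher with it.

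The authors' deposited tables held proteasome genes in 1 direction only. For scale, their main sheet has 23349 rows, of which 49 are members. The authors' deposited table from Cuffdiff lists 7 members among 1548 genes, of which 36.1% are higher. Those 7 in the authors' deposited table, Psmd9, Psmc2, Psmg1, Psma3, Psmb3, Psmg3 and Psmd6, are all higher. The authors' deposited table from DESeq2 lists 10 members, all higher, among 195 genes, of which 75.9% are higher. Its values were 0.953 for Psmc2, 0.954 for Psmg1 and 0.941 for Psmg4 on the log2 scale in the authors' deposited table, against 0.53, 0.53 and 0.50 in the fit here. Psmc2, Psmg1 and Psmd6 stand in both lists, 42.9% of the first and 30% of the second, in the authors' deposited tables. The authors' deposited table from limma, with 146 genes, and their deposited core list, with 57 lines, hold 0 members. Log2 values of the deposited DESeq2 table exceed those of the fit by a median of 0.427, and moving the induced libraries by that amount raised the median of all genes to 0.39 and that of the members to 0.61. On that scale limma called 2352 of all genes past the threshold higher and 124 lower, against 16 and 132 without the shift, and 28 members higher and 0 lower. The shift adds the same amount to every gene, so it leaves the distance between the members and the median gene as it was.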

How the data were processed

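The submitters' processing notes name build mm10, TopHat2 (2.0.9) and Bowtie2 (2.1.0.0), with no roles. Those notes also name the authors' Cufflinks and Cuffdiff (both 2.2.0), DESeq2 and limma; settings and annotation: not given in the sources used here. Libraries came from the AmpliSeq Library PLUS kit, per the labels' protocols. The name of the authors' main sheet says FPKM, yet every library column sums to 1000000, so its deposited values are TPM and keep no depth. The authors' deposited Cuffdiff table gives, per gene, FPKM with a q-value and a log2 ratio, and their limma table adds a B score, per the file headers. Column names give a group and a number and the labels letters, hence a column is tied to its group and to no single sample.

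Genes averaging 1 TPM or more entered a limma fit (version 3.58.1, R 4.3.3) of group on log2(TPM + 1), with a variance trend in eBayes. Benjamini-Hochberg adjustment ran over the 12400 genes at a threshold of 0.05. The fit without a block was run on simulated data with independent noise in each library. That run did not cover the block fit or shifts that libraries share across genes. The planned test was written for FPKM and serves TPM alike. For the block, deviations from group means correlated at 0.461, 0.182 and 0.717 within the pairs numbered 1, 2 and 3; the labels do not tie equal numbers to a shared origin, and induced 2 correlated more with basal 1 (0.322). Members, lists and the rule for named genes were chosen with earlier results of these data known. The rule takes members past the threshold, the 2 highest and 2 lowest of each class and list, and a fixed set of subunits and cofactors; not every gene it takes is described. Dates stand in place of symbols in 27 rows of the main sheet, which cannot be matched.

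Alternatives were a pseudocount of 0.1, no filter or one at 5 TPM, other scales, eBayes without a trend, libraries left out, the block and a threshold of 0.1. Those chosen after seeing the data were the per-library scale behind the deposited ratio column, a correction of each library for GC content with and without the block, and the block without each number.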

Additional observations from a re-analysis of the deposited data

How the results depend on the processing

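Counts of proteasome members past the threshold are followed by those of all genes past the threshold. With the replicate block they were 15 (2761). Without the numbers 1, 2 or 3 in the block fit they were 7, 7 and 13 (1799, 1442 and 1425). Without the libraries numbered 3 and without a block they were 4 (688), after GC correction 1 (435), after GC correction with the block 21 (3456), 28 (2476) on the scale of the DESeq2 sheet, and at a threshold of 0.1 they were 1 (394). A filter at 5 TPM gave 93 genes of all and the scale of the deposited ratio column 96, with 0 members in each. With 1 library left out 0 members passed and 0 to 255 of all genes did. The median of the members was 0.23 after median-ratio rescaling, 0.61 on the DESeq2 scale, 0.22 after GC correction with or without the block, and 0.16 to 0.21 with 1 library left out. Leaving out 1 library moved the value of 30 of the 47 members by over 1.5 times, among them Psma3 and Psmb9 of the 15 called with the block. Members with a positive difference then numbered 36 to 40, and Pam ranged from 1.99 to 2.48.

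The following log2 differences turned sign. Median-ratio rescaling gave 0.023 for Psma1, 0.030 for Psmc3 and 0.0090 for Psme1. The DESeq2 scale, which moved all genes up, gave Psma1 0.40, Psmb8 0.094, Psmc3 0.41, Psmc3ip 0.26, Psmd8 0.34, Psme1 0.39, Psmg2 0.31 and Uba6 0.077. Without the libraries numbered 3, with or without the block, Psma1 was 0.013, Psma4 -0.0035 and Psmc1 -0.035. GC correction, with or without the block, gave Psma1 0.043 and Psmc3 0.011. In the block fit Psma1 was 0.0031, Psmc3 0.028 and Psme1 0.084 without number 1, and Psmb7 -0.095 without number 2. Quantile normalization gave Psmc1 -0.026, and the ratio column's scale Psmc3 0.0021. With 1 library left out the ranges were -0.0103 to 0.17 for Nfe2l1, -0.14 to 0.13 for Psma1, -0.043 to 0.15 for Psma4, -0.046 to 0.17 for Psmb7, -0.20 to 0.16 for Psmc1, -0.26 to 0.18 for Psmc3, -0.47 to 0.10 for Psmc3ip, -0.019 to 0.25 for Psmc4, -0.045 to 0.29 for Psmc6, -0.0304 to 0.25 for Psmd10, -0.016 to 0.15 for Psmd2, -0.28 to 0.14 for Psme1, -0.12 to 0.32 for Psme3, -0.016 to 0.30 for Psme4, -0.23 to 0.0052 for Psmg2 and -0.67 to 0.029 for Uba6. The cause was not tested. TPM keep no depth, so the counting error of low genes such as Psmb9 is unknown.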
